A study of Mus musculus with 4 samples.

Results

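The genes described here are 10 chemokines that fibroblasts can make: Cxcl1, Cxcl2, Cxcl5, Cxcl10, Cxcl12, Cxcl16, Ccl2, Ccl5, Ccl7 and Cx3cl1. They were chosen by symbol, with the knowledge that Cxcl5 and Cxcl1 were among the lowest genes of the series with the compound CA39, so the log2 difference between the CA39 and untreated arrays is given for them as a description. All 11 gene probes whose accession maps to these symbols were taken, out of 55681 probes that carry 36983 gene names. The cells were NIH-3T3, an established mouse fibroblast line derived from embryos, grown to confluence in DMEM with serum, which the sample labels give as fetal bovine and the study's methods as newborn calf serum. Of 4 cultures, 1 was left untreated and 1 each was kept for 24 h with AR7, CA39 or CA77 at 20 µM, and the RNA of each was put on 1 one-colour expression array. AR7, CA39 and CA77 are related small molecules that activate chaperone-mediated autophagy (CMA), a route by which selected proteins enter lysosomes. The compounds were given in DMSO and the control is labelled as having had no treatment, so where all 3 treated arrays differ from it, solvent and compound cannot be told apart. Each group holds 1 culture and 1 array, so the values below compare single arrays, no test could be run, and no difference between cultures of 1 group is known. In bulk RNA of this kind, fewer cells making a transcript and less transcript per cell cannot be told apart.

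Chemokines are small secreted or shed proteins that bind G protein-coupled receptors on leukocytes and draw these cells along a gradient. CXC chemokines with a glutamate-leucine-arginine motif, such as Cxcl1, Cxcl2 and Cxcl5, attract neutrophils through Cxcr2, whereas CC chemokines such as Ccl2 and Ccl7 attract monocytes through Ccr2. Fibroblasts switch many of them on through the transcription factor NF-κB when they meet interleukin-1, tumour necrosis factor or bacterial products, and Cxcl1 and Ccl2 were first isolated as the growth factor-induced genes KC and JE of mouse fibroblasts.

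The promoters of 3 members are shown because Cxcl1 and Cxcl2 carry the same NF-κB motif although only Cxcl1 was detected, and because Cxcl10 carries motifs that the others do not. Each sequence runs in the direction of transcription from 250 bases before to 50 bases after the start given by RefSeq on GRCm38.p6. Cxcl1 is at chr5:90890995-90891294 on the plus strand, Cxcl2 at chr5:90903649-90903948 on the plus strand and Cxcl10 at chr5:92348840-92349139 on the minus strand. Capitals mark matches to the NF-κB consensus, to the AP-1 motif TGANTCA and to the interferon-stimulated response element (ISRE; GAAA, any 2 bases and GAAA again), all searched on both strands.

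Cxcl1 promoter: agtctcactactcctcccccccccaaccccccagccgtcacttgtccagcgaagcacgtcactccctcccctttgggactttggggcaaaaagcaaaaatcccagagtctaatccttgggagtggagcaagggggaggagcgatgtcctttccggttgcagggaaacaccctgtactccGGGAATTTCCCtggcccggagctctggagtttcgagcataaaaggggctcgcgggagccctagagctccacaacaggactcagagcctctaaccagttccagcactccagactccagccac
Cxcl2 promoter: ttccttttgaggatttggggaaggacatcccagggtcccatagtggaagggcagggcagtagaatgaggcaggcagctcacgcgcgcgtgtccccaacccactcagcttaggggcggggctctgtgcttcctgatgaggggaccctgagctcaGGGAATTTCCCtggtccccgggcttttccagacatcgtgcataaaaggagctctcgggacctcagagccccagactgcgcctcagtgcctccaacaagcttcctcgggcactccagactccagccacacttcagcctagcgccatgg
Cxcl10 promoter: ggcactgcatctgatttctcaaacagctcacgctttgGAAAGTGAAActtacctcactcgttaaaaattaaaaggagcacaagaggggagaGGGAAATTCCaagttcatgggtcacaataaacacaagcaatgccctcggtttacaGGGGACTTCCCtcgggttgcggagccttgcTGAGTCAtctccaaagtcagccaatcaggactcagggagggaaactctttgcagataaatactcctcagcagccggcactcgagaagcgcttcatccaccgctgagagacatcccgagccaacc

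The promoters of Cxcl1 and Cxcl2 share the 11 bases GGGAATTTCCC, which lie 71 to 61 bases before the start of Cxcl1 and 97 to 87 bases before that of Cxcl2. The Cxcl10 promoter holds NF-κB matches at 159 to 150 and at 104 to 94 bases before the start, an AP-1 match at 74 to 68 and an ISRE match at 213 to 204. No matched stretch overlaps another kind of motif in these windows. Among all 32851 RefSeq promoters of the same length, 8.46% hold the NF-κB consensus, 7.81% the AP-1 motif and 3.44% the ISRE. The letters TATAAA, searched on the gene's strand, occur in 8.32% of them and in none of the 3 shown. The promoter table held 5 of the 10 members, and of the remaining 2, Cxcl12 had no match and Cx3cl1 had TATAAA at 6 to 1 bases before its start. Promoters of Cxcl5, Cxcl16, Ccl2, Ccl5 and Ccl7 were not analysed here. A match states which letters are in the window and nothing about binding.

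On the arrays, 7 of the 10 chemokines gave a signal well above background in all 4 cultures, and 6 of these 7 were lower by over 2-fold with CA39: Cxcl1, Cxcl5, Cxcl10, Ccl2, Ccl5 and Ccl7. Of 27894 gene names compared, 1.16% were past 2-fold lower and 3.69% higher with CA39, and this contrast was known when the members were chosen. With AR7 and with CA77, the same 6 genes lay within 2-fold of the untreated array, and none of them was lower than untreated. Values are given as log2 of the background-corrected and quantile-normalized spot signal. They compare arrays for 1 probe and not 1 gene with another. The yardstick for a single difference is a tolerance of 0.16 on this scale (1.12-fold), which comes from repeat spots within an array and does not cover differences between cultures.

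Cxcl5, a neutrophil attractant, had a normalized log2 signal of 17.32 on the untreated array, 17.84 with AR7, 12.14 with CA39 and 17.83 with CA77. CA39 was the low array, and the arrays of the other compounds were both above untreated. The difference from untreated was -5.18 with CA39, a 36.3-fold lower signal, and 0.52 and 0.51 with AR7 and CA77. Before normalization, the background-subtracted spot read 169175 scanner units on the untreated array, 244532 with AR7, 4735 with CA39 and 218412 with CA77. Thus the lower CA39 signal was present in the scanner values before any scaling.

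Cxcl1, the KC protein and a close relative of Cxcl5 in function, read 16.11 on the untreated array, 16.69 with AR7, 11.10 with CA39 and 16.76 with CA77. Its order over the arrays was that of Cxcl5, apart from AR7 and CA77, which differed by 0.07 for Cxcl1 and -0.01 for Cxcl5 (CA77 minus AR7). The CA39 array was 32.3-fold below the untreated one (log2 difference -5.01), and AR7 and CA77 were higher by 0.58 and 0.65. The net spot signals were 73673, 111769, 2281 and 104835 scanner units on the untreated, AR7, CA39 and CA77 arrays. The spots around the Cxcl1 spot had median differences from untreated of 0.05, 0.00 and -0.02 with AR7, CA39 and CA77, and those around the Cxcl5 spot 0.08, 0.03 and 0.16. The surroundings of both spots therefore moved by at most about the tolerance.

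Cxcl2, the third neutrophil attractant, stayed below detection on every array, with values between 4.69 and 5.05, and no fold is given for it. Its promoter, printed above, carries the same 11-base NF-κB stretch as that of Cxcl1. On GRCm38.p6, Cxcl5, Ppbp, Pf4, Cxcl3, Cxcl15, Cxcl1 and Cxcl2 lie in this order along chromosome 5. Of the 4 non-members in this row, Ppbp, the precursor of a platelet-derived neutrophil attractant, was detected at 10.22 on the untreated array, 10.43 with AR7 and 10.36 with CA77. On the CA39 array its signal did not stand well above background, so the log2 difference of -3.35 is a bound and the true one is at least as large. Pf4, a platelet chemokine, was detected only on the untreated array at 6.09, and Cxcl3 and Cxcl15 on none. The row thus held detected genes with a low CA39 signal (Cxcl5, Ppbp, Cxcl1) beside genes without a usable signal.

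**Figure D1:**
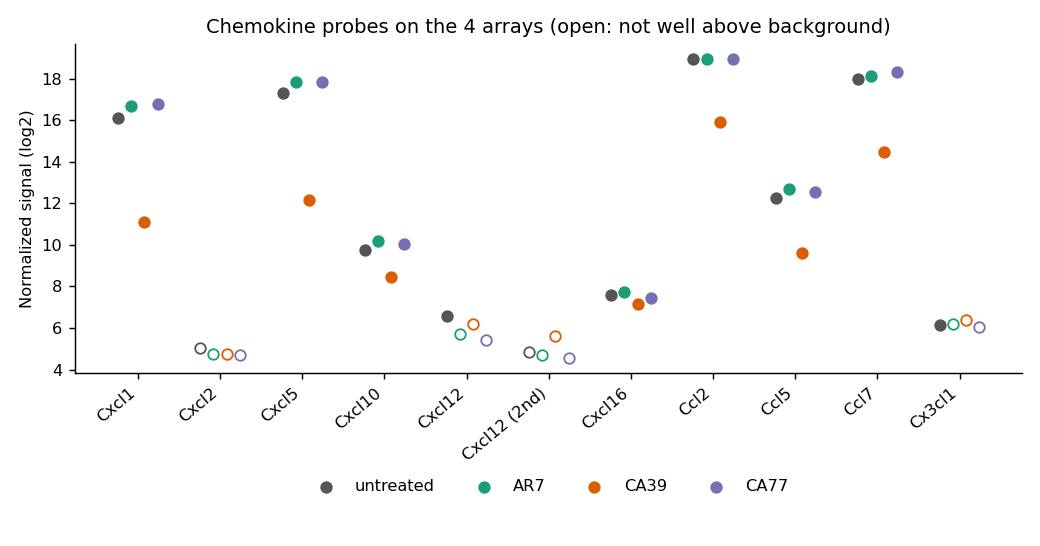
Normalized log2 signal (vertical axis) of the 11 chemokine probes (horizontal axis) on the untreated, AR7, CA39 and CA77 arrays, 1 array each, with open circles for values not well above background. Cxcl1, Cxcl5, Cxcl10, Ccl2, Ccl5 and Ccl7 have their lowest point with CA39 (for Cxcl5 12.14 against 17.32 untreated), while Cxcl2 and the second Cxcl12 probe are open on every array.

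Cxcl10, an interferon-inducible attractant of T cells that signals through Cxcr3, read 9.77 on the untreated array, 10.19 with AR7, 8.47 with CA39 and 10.04 with CA77. CA39 was again the low array, 2.46-fold below untreated (-1.30), while AR7 and CA77 were higher by 0.42 and 0.27. At this signal the CA39 difference ranged from -1.49 to -1.19 over the processing alternatives. The spots around the Cxcl10 spot had median differences from untreated of 0.21, 0.14 and 0.25 with AR7, CA39 and CA77. Unscaled, the log2 ratio of its net signal to untreated was 0.53, -1.35 and 0.12, the last within the tolerance. Of the members past 2-fold lower with CA39, Cxcl10 was the one nearest to the threshold, and the nearest measured member on the other side was Cxcl16 at -0.41 (1.33-fold).

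Cxcl16, a membrane-bound chemokine that also takes up oxidized lipoprotein, read 7.57 on the untreated array, 7.73 with AR7, 7.16 with CA39 and 7.45 with CA77. Its differences from untreated were 0.16, -0.41 and -0.12, with the CA77 value inside the tolerance here but between -0.33 and -0.24 when the processed signal or the series table was used instead. Under the same alternatives the AR7 value lay between 0.05 and 0.08 and the CA39 value between -0.71 and -0.55. The spot was dim, with net signals of 160 units on the untreated array, 179 with AR7, 106.9 with CA39 and 117 with CA77. Unscaled, the log2 ratio of these net signals to untreated was -0.59 with CA39 and -0.46 with CA77.

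Ccl2, the JE protein and a principal monocyte attractant, was the only member printed in 10 spots per array. Its means over these spots were 18.93 on the untreated array, 18.95 with AR7, 15.89 with CA39 and 18.94 with CA77. On the untreated array the 10 spots ran from 18.87 over a median of 18.93 to 18.96 (SD 0.03, n = 10 spots), those of AR7 from 18.91 over 18.94 to 19.02 (SD 0.03), and those of CA77 from 18.91 over 18.94 to 18.98 (SD 0.02). The 10 CA39 spots ran from 15.71 over 15.94 to 16.00 (SD 0.11) and did not overlap those of any other array. These spots share 1 RNA sample per array, so their spread is a measurement error within the array. The CA39 mean was 8.19-fold below untreated (-3.03), and AR7 and CA77 differed from untreated by 0.02 and 0.01.

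Closeness of the other 3 arrays at Ccl2 has to be read with the method. Only 3 probes were brighter than Ccl2 on the untreated array, 2 with AR7 and 2 with CA77, and quantile normalization assigns nearly equal values to probes of such rank. With CA39, 1774 probes were brighter. The net Ccl2 signal was 492463, 529179 and 496166 units on the untreated, AR7 and CA77 arrays, which is 63.2%, 67.9% and 63.6% of the scanner's saturation value, and 61479 units (7.88%) with CA39. When arrays were scaled to the 75th percentile instead, CA77 differed from untreated by 0.15 and CA39 from CA77 by -3.25.

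**Figure D2:**
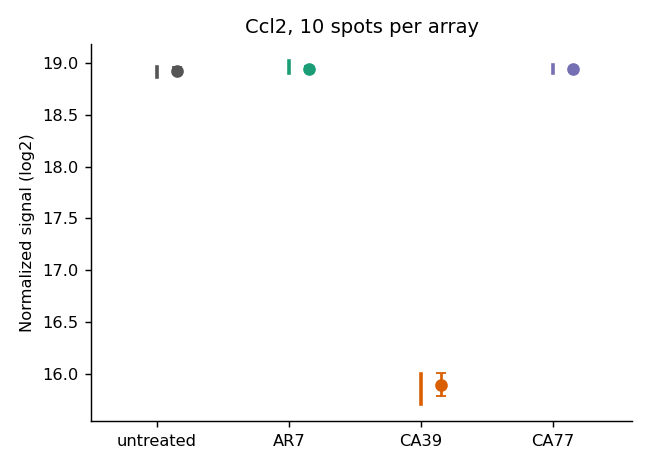
Normalized log2 signal (vertical axis, not starting at 0) of the 10 Ccl2 spots on each array, with the line from the lowest to the highest spot and the point at the mean with its SD over spots of 1 array. The CA39 spots lie between 15.71 and 16.00 and all others between 18.87 and 19.02.

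Ccl7, a monocyte attractant that shares the receptor Ccr2 with Ccl2, read 17.98 on the untreated array, 18.12 with AR7, 14.46 with CA39 and 18.33 with CA77. CA39 was 11.4-fold below untreated (-3.52), AR7 differed by 0.14, within the tolerance, and CA77 by 0.35. On chromosome 11, Ccl2, Ccl7, Ccl11 and Ccl12 lie in this order. Ccl11, an eosinophil attractant, was detected on no array, and Ccl12, another ligand of Ccr2, only on the untreated array and with CA77, at 6.16 and 6.30.

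Ccl5, which attracts T cells and monocytes, read 12.24 on the untreated array, 12.68 with AR7, 9.60 with CA39 and 12.54 with CA77. CA39 was 6.25-fold below untreated (-2.64), and AR7 and CA77 were above it by 0.43 and 0.30. As with Cxcl1, Cxcl5 and Cxcl10, the difference with CA39 and those with the other compounds had opposite signs and each was larger than the tolerance.

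Cxcl12, which keeps stem cells and lymphocytes in their niches through Cxcr4, has a pair of probes. The brighter read 6.58 on the untreated array, where alone it was well above background, and 5.72, 6.19 and 5.40 with AR7, CA39 and CA77. Against the detection floor of the CA77 array this is at least 1.25-fold lower, and the floors of the AR7 and CA39 arrays are too high to give a fold. The second probe, for another transcript, stayed undetected on every array, with values between 4.57 and 5.60. Cx3cl1, a membrane-anchored chemokine whose receptor is Cx3cr1, was well above background only on the untreated array, at 6.16, with 6.18, 6.37 and 6.07 on the AR7, CA39 and CA77 arrays. No fold is given for it. Fewer probes of all kinds were detected on the treated arrays (52.7% with AR7, 52.1% with CA39 and 61.4% with CA77 against 69.7% untreated), and the part of this in the dim members was not tested.

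Counted against untreated, 9 members could be compared, of which Cxcl12 and Cx3cl1 rest on at least 1 value below detection. With AR7, 0 members were past 2-fold higher and 0 lower, where 1.8% of 27855 gene names were higher and 0.388% lower. With CA77 the counts were likewise 0 and 0, where 1.93% of 28126 gene names were higher and 0.548% lower. With CA39, 0 members were higher and 6 lower, where 3.69% of 27894 gene names were higher and 1.16% lower, a contrast that was known when the members were chosen. Over the 7 members detected on every array, the median difference was -3.03 for CA39, 0.42 for AR7 and 0.30 for CA77, while that over the 20594 gene names detected on every array was -0.04, -0.01 and -0.02. Over all 9, with differences whose higher side was undetected set to 0, the medians were -2.64, 0.16 and 0.27. These 3 comparisons share the untreated array.

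Since dose and time were the same, the compounds could also be set against each other directly, in 3 pairs and over the 7 members detected everywhere. The log2 difference of CA39 from AR7 was -5.70 for Cxcl5 (52.0-fold lower), -5.59 for Cxcl1, -3.66 for Ccl7, -3.08 for Ccl5, -3.05 for Ccl2, -1.71 for Cxcl10 and -0.57 for Cxcl16. Against CA77, CA39 differed by -5.69 for Cxcl5, -5.66 for Cxcl1, -3.87 for Ccl7, -3.05 for Ccl2, -2.94 for Ccl5, -1.57 for Cxcl10 and -0.29 for Cxcl16. In both pairs 6 members were past 2-fold lower and 0 higher. Of all gene names, 2.43% were past 2-fold lower and 3.72% higher with CA39 against AR7 (23075 compared), and 2.24% lower and 3.98% higher against CA77 (25457 compared).

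CA77 and AR7 gave close values for the chemokines. CA77 minus AR7 was 0.07 for Cxcl1, -0.01 for Cxcl5, -0.14 for Cxcl10, -0.13 for Ccl5 and -0.00 for Ccl2, 5 members within the tolerance. The differences of Cxcl5 and Ccl2 changed sign under other processing, and when arrays were scaled to the 75th percentile that of Ccl2 was 0.16, while those of Cxcl1 (0.17) and Cxcl10 (-0.17) were just past the tolerance. Ccl7 was higher with CA77 by 0.21 and Cxcl16 differed by -0.28. No member was past 2-fold in this pair (0 higher, 0 lower), where 1.16% of 25344 gene names were higher and 1.4% lower. With single arrays this closeness has no interval across cultures.

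**Figure D3:**
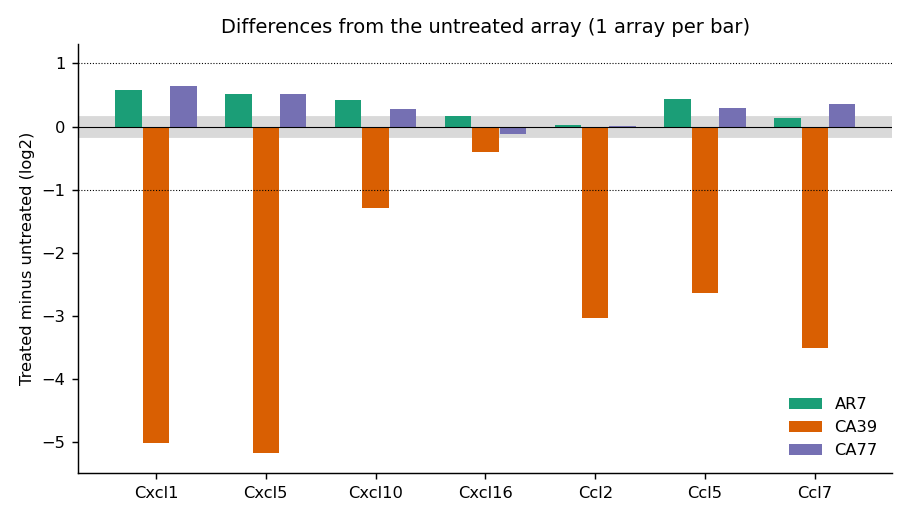
Log2 difference from the untreated array (vertical axis) of the 7 chemokines detected on all 4 arrays (horizontal axis), 1 bar per treated array for AR7, CA39 and CA77, with the grey band at the within-array tolerance of 0.16 and dotted lines at 2-fold. CA39 bars run from -5.18 for Cxcl5 to -0.41 for Cxcl16, and AR7 and CA77 bars from -0.12 to 0.65.

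Ranked from the lowest difference with CA39 among 13019 named genes detected on all arrays, Cxcl5 was at rank 2, Cxcl1 at 3, Ccl7 at 15, Ccl2 at 19, Ccl5 at 23, Cxcl10 at 104 and Cxcl16 at 1224. These ranks come from the contrast that led to the choice and are a description. Over all 20594 gene names detected on every array, the difference ran from -5.69 to 5.62 with a median of -0.04 and an SD of 0.45.

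**Figure D4:**
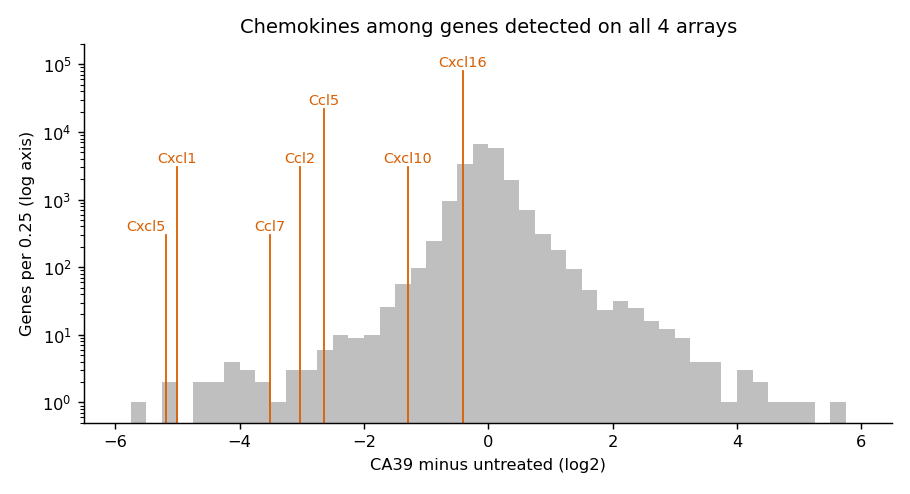
Number of gene names (vertical log axis, bins of 0.25) by their log2 difference between the CA39 and untreated arrays (horizontal axis), for gene names detected on all 4 arrays, with vertical lines at the 7 detected chemokines whose heights carry no value. Cxcl5 (-5.18) and Cxcl1 (-5.01) stand in the far left tail and Cxcl16 (-0.41) in the body of the distribution.

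The gene whose values over the 4 arrays lay closest to those of Cxcl5 was Cxcl1. Likeness was measured as the Euclidean distance between log2 values centred on each gene's mean, among 13018 named genes, and for this pair it was 0.13. After it came Dcn at 0.40, Zmynd15 at 0.69, Lrrc32 at 0.84 and Prl2c1 at 0.95. The same 4 genes followed Cxcl5 in the list for Cxcl1, at 0.52, 0.67, 0.82 and 0.87. Dcn, which encodes the matrix proteoglycan decorin, differed from untreated by 0.46, -5.69 and 0.31 with AR7, CA39 and CA77. Zmynd15, Lrrc32 and Prl2c1 differed by -4.65, -4.56 and -3.96 with CA39, and a second Zmynd15 probe, not detected with CA39, gave a bound of at least -1.44. Closest to Ccl2 were Csf2rb, a cytokine receptor chain, at 0.31, Ccl5 at 0.33, the death receptor Fas at 0.35, Il22ra2 at 0.38 and Bmper at 0.38. Their differences with CA39 ran from -3.41 for Fas to -2.56 for Bmper, and a second Csf2rb probe read -0.98. The list rests on 4 arrays, so genes whose main difference is a CA39 value of similar size come out as alike.

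Further chemokines were counted beside the share of all gene names past 2-fold with CA39, which was 1.16% lower and 3.69% higher. Of 9 further CXC chemokines, 8 were on the array and 4 could be compared, and Ppbp was the single gene lower with CA39. Of 19 further CC and XC chemokines, 18 were on the array and 11 could be compared with CA39, of which Ccl3 and Ccl8 were past 2-fold lower and 0 higher, with a median of -0.23. Ccl8, another monocyte attractant, read 13.49, 13.88, 11.06 and 13.81 on the untreated, AR7, CA39 and CA77 arrays, and its differences of 0.39, -2.43 and 0.32 had the signs of Ccl5. Ccl3, which draws macrophages, read 10.08, 9.56, 7.64 and 9.21 and was below untreated with every compound (-0.52, -2.45 and -0.87). Ccl9 differed by -0.56, -0.15 and -1.18 and was thus past 2-fold lower with CA77 alone.

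Of 23 chemokine receptors, 14 could be compared, and Ackr3 was the single one past 2-fold, higher with CA39, where 3.69% of all gene names were higher and 1.16% lower (1.8% and 0.388% with AR7, 1.93% and 0.548% with CA77). Ackr3 is a receptor that takes up Cxcl12 without G protein signalling. It read 10.83 on the untreated array, 12.90 with CA39 and 11.10 with CA77, and its differences from untreated were 2.07 for CA39, -0.13 for AR7 and 0.27 for CA77. Of the 23 receptors, 6 were detected on all 4 arrays, Ackr1 at 7.15 to 7.57 among them. Cxcr6, which binds Cxcl16, was also detected on all 4 arrays, at 6.85 to 7.05. Cxcr3, the receptor of Cxcl10, was detected on the untreated and CA77 arrays at 6.82 and 6.39, and Cx3cr1 on the untreated array at 6.19. Ccr3, which binds Ccl5 and Ccl7, was detected on the untreated and CA77 arrays at 6.87 and 6.26. Cxcr2, Ccr2, Ccr1 and Cxcr4 were detected on no array. Of 10 genes for chemokine cleavage and presentation, 9 could be compared, of which 1 was past 2-fold higher with AR7 and 2 were lower with CA39. Mmp9, a gelatinase that trims chemokines, differed by 1.35 with AR7, by 0.85 with CA77 and by at least -1.28 with CA39, where it was undetected. Dpp4, a protease that shortens Cxcl10 and Cxcl12, differed by at least -1.03 with CA39, where it too was undetected.

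Genes that act upstream and beside the members were counted in the same way. All 14 NF-κB factors and inhibitors were detected on all arrays, and with CA39 5 were past 2-fold lower and 0 higher (all gene names 1.16% and 3.69%). Their median was -0.49 against 0 over all gene names compared, where differences whose higher side was undetected count as 0. These were Tnfaip3 (-1.68), Nfkbia (-1.54), Nfkbiz (-1.27), Nfkbie (-1.15) and Relb (-1.07, and -1.07 at a second probe). Nfkbia, the inhibitor that holds NF-κB in the cytoplasm and is itself an NF-κB target, read 16.32, 16.48, 14.78 and 16.68 on the untreated, AR7, CA39 and CA77 arrays. Tnfaip3, which encodes the ubiquitin-editing brake A20, read 12.76, 12.23, 11.08 and 12.37. With AR7 and CA77, 0 of the 14 were past 2-fold, with medians of 0.12 and 0.05. Of all gene names, 1.8% were past 2-fold higher and 0.388% lower with AR7, and 1.93% higher and 0.548% lower with CA77. Rela, the main activating subunit, differed by 0.04, -0.14 and 0.14.

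Of 16 other NF-κB target genes, 13 could be compared, and with CA39 5 were past 2-fold lower and 1 higher (all gene names 1.16% and 3.69%), with a median of -0.47 against 0. Lcn2, an iron-scavenging protein of innate defence, read 14.07, 13.98, 9.59 and 13.57 on the untreated, AR7, CA39 and CA77 arrays, a CA39 difference of -4.49. C3, the central complement component, read 16.72, 16.80, 12.65 and 16.84, a CA39 difference of -4.07 at this probe and -3.88 at the second. Lif differed by -1.24, Il1a by at least -1.23 and Vcam1 by -1.07, with -0.58 at the second Vcam1 probe. Il6, a cytokine that fibroblasts often make together with Cxcl1, went the other way, with 6.66 on the untreated array and 8.88 with CA39 (2.22), 6.56 with CA77 and a value not well above background with AR7. Saa3, an acute-phase protein, was past 2-fold lower with AR7 (-1.12) and CA77 (-1.04) and differed by -0.47 with CA39.

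Interferon-stimulated genes are the wider group to which Cxcl10 belongs. Of 16 listed, 14 were on the array and all 14 could be compared. With CA39 3 were past 2-fold higher and 0 lower, where 3.69% of all gene names were higher and 1.16% lower. The 3 were Bst2, a tether of budding virus, at 2.88, Isg15 at 1.03 (0.91 at a second probe) and Stat2 at 1.01. Cxcl10 itself was at -1.30. Ifit1 was lower with AR7 (-1.43) and CA77 (-1.01) and differed by 0.66 with CA39, and the list medians were -0.44, 0.02 and -0.37 with AR7, CA39 and CA77. Of 15 cytokine and growth factor receptors, 14 could be compared with CA39. Of these, 2 were past 2-fold higher and 0 lower, with a median of -0.15. The 2 were those for platelet-derived growth factor, Pdgfra higher by 1.19 and Pdgfrb, detected on the CA39 array alone, by at least 2.90. The lowest of the list was Il1r1 at -0.87, while Tnfrsf1a differed by 0.15.

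**Figure D5:**
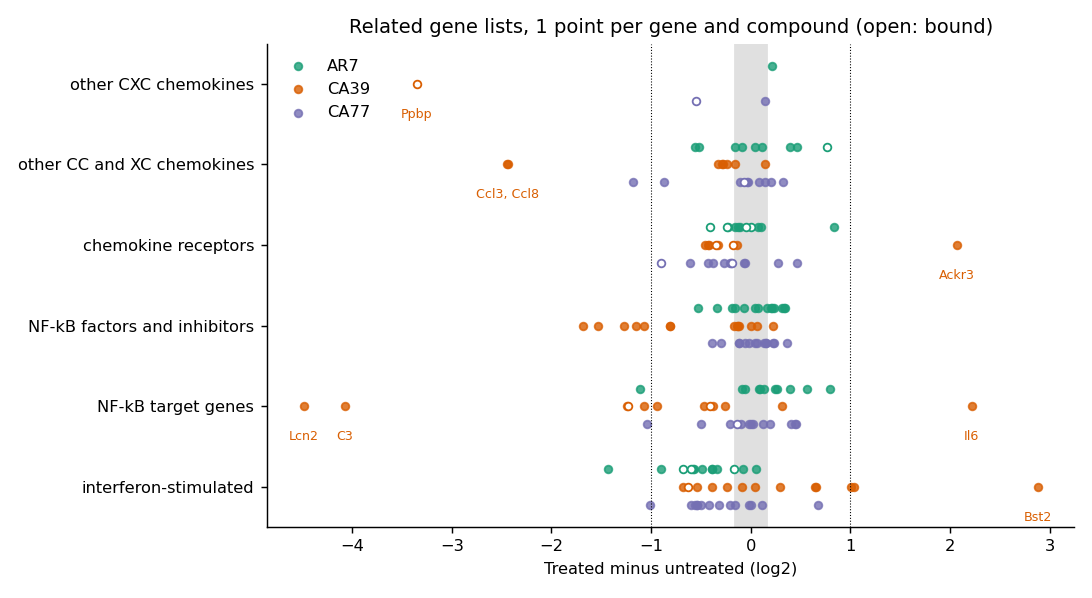
Log2 difference from the untreated array (horizontal axis) of the genes of 6 related lists (vertical axis), 1 point per gene and treated array (AR7, CA39, CA77), open where 1 of the arrays was below detection and the value is a bound, with pairs that give no value left out, a grey band at the tolerance and dotted lines at 2-fold. Lcn2 (-4.49), C3 (-4.07), Ppbp (-3.35), Ccl3 (-2.45) and Ccl8 (-2.43) lie far left with CA39, and Bst2 (2.88), Il6 (2.22) and Ackr3 (2.07) far right.

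The label of the cells was set against marker lists. Of 11 fibroblast markers 10 were detected on all arrays, Pdgfrb with CA39 alone, and their summed signal lay between 1033190 and 1251690. Such a sum is carried by the brightest probes, so it can stay level while single markers move. With CA39, where 3.69% of all gene names were past 2-fold higher and 1.16% lower, 4 markers were higher and 2 lower: Col1a1 (1.06), Fn1 (1.47), Pdgfra and Pdgfrb were past 2-fold higher and Dcn (-5.69) and Lum (-4.21) lower. With AR7, Col1a1 was at -1.04, where 0.388% of all gene names were past 2-fold lower and 1.8% higher. Of 7 leukocyte markers, 6 were on the array, 0 were past 2-fold against untreated, and their sum lay between 11118 and 14043. Itgam, Csf1r, Cd14 and Lyz2, which mark myeloid cells, were detected on all 4 arrays. Adgre1 lay between 6.87 and 7.07 and was detected on every array but CA39, and the pan-leukocyte marker Ptprc lay between 6.33 and 6.82 and was detected on the untreated and CA77 arrays. Of 5 endothelial markers, Emcn was past 2-fold higher with AR7 (1.12), and the sum lay between 3975 and 4540. The sum of 4 epithelial markers was 1508 with CA39 and 314 to 417 on the other arrays, with Krt8 at 2.38 and Epcam at a bound of 1.65, while Cdh1 was detected on no array. The part of any of these markers in the chemokine values was not tested.

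All arrays lay on 1 slide and had 0 saturated gene spots. Their median net signal was between 89.5 and 108 units. The untreated array lay in another row of the slide than the 3 treated arrays, and the CA77 array had its own scan time, so slide row cannot be told apart from treatment. Over the 20 member spots, 0 were flagged, and the median differences of their neighbouring spots ran from -0.38 to 0.36, with 20 of 60 values past the tolerance and the largest beside a Cxcl12 spot. These neighbour differences are small beside the CA39 differences of Cxcl1, Cxcl5, Ccl2, Ccl5 and Ccl7, and overlap in size with the AR7 and CA77 differences of the members.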

How the data were processed

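Per the labels, total RNA was labelled with Cy3. The authors deposited scanner files in which each of 62976 spots per array has an intensity on a linear scale, a local background and quality marks (Feature Extraction 10.7.3.1). The deposited series table equalled the background-subtracted intensity at all 62976 spots. The labels name oligo and RMA, whose values were not used here. Spot median signals were corrected for the local background median in limma 3.58.1 under R 4.3.3 (method normexp, offset 0). Control and flagged spots were dropped, arrays were quantile normalized, log2 values were taken from the deposited intensities, and spots of a probe were averaged.

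Detection of a probe required that over 50% of its spots carried the scanner software's mark for signal well above background. Dim values were raised to the 1st percentile of detected signal (5.88 on untreated, 6.82 on AR7, 6.87 on CA39, 6.26 on CA77), and differences against them are bounds. A difference whose higher side was undetected was set to 0. Past 2-fold means a log2 difference of at least 1. The tolerance is from 399 probes printed 10 times. With 1 array per group no test was run, and the number of arrays limits precision.

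Accessions were matched to RefSeq names of GRCm38.p6, which named 27656 of 55681 probes. Genes are given by their brightest probe. The naming rule covers every member, genes of the other lists past 2-fold against untreated, and the 5 nearest genes to Cxcl5, Cxcl1 and Ccl2. Genes named from outside this rule (Rela, the receptors of the members, Ackr1, the leukocyte markers, Cdh1, Il1r1, Tnfrsf1a and the chromosome neighbours) were picked after values were seen. Members and lists were chosen with earlier results of these data known. The steps were checked on simulated data.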

Additional observations from a re-analysis of the deposited data

Results flagged for a closer look

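For 4 chemokines the CA39 array differed from the untreated array in the opposite direction to both the AR7 and the CA77 array, with each of the 3 differences larger than the tolerance of 0.16. Ccl2 and Ccl7 had the same signs, but at least 1 of their differences lay within it. The log2 difference with CA39 was -5.01 for Cxcl1, -5.18 for Cxcl5, -1.30 for Cxcl10 and -2.64 for Ccl5, whereas the differences with AR7 and CA77 were 0.58 and 0.65 for Cxcl1, 0.52 and 0.51 for Cxcl5, 0.42 and 0.27 for Cxcl10, and 0.43 and 0.30 for Ccl5. For Cxcl10 the CA77 difference was close to that of the neighbouring spots (0.25), and its unscaled log2 ratio of 0.12 lay within the tolerance. Whether the compounds differ was not tested, because each is represented by 1 array.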

How the results depend on the processing

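The counts of members past 2-fold were recomputed 60 times over 6 comparisons, and 58 lay within 1.5 times the reported count. The exceptions were for CA77 against untreated, where 0 became 1: Cxcl12 was lower (-1.18) with no floor and no filter, and Cxcl1 was higher with a 1.5-fold threshold. Of 414 recomputed differences of single members, 0 that lay beyond the tolerance changed sign, and 19 moved by more than the tolerance, mostly those of Cxcl10, Cxcl12 and Cxcl16. With CA39, 6 members lower became 4 when spots in grid rows up to 160 were left out, since Cxcl5 and Ccl5 have no spot elsewhere. No paired analysis was possible because each group has 1 array, and for the same reason no replicate could be left out. Depth in the sense of signal over background limits Cxcl2, Cxcl12, Cxcl16 and Cx3cl1.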
